A study of Mus musculus with 9 samples.

Results

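The genes described here encode secreted Wnt ligands, their Frizzled and LRP receptors, the secreted antagonists of the SFRP and DKK families, and the core of the intracellular pathway: the Axins, beta-catenin and the TCF/LEF factors. They were taken by gene symbol, as every row of the expression table named Wnt, Fzd, Sfrp or Dkk with a number, together with Lrp5, Lrp6, Axin1, Axin2, Tcf7, Tcf7l1, Tcf7l2, Lef1 and Ctnnb1. This gave 38 of the 28965 genes in the table. Wnt2, Wnt3a, Wnt7a, Wnt8a, Wnt8b, Wnt9b, Fzd10 and Sfrp5 fit these names but had no row under these symbols. Nothing can be said here of their expression. Other genes of these families were not taken as members. Of them, Lrp4, Frzb and Dkkl1 entered only with the other pathway genes described below. RNA came from 3T3-L1 cells, a clonal mouse line of fibroblasts committed to the adipocyte lineage, labelled wild type. All cells were kept at confluence for 2 days and then received the same adipogenic cocktail for 24 h, made of 0.1 µg/mL insulin, 30 µg/mL isobutylmethylxanthine and 0.1 µg/mL dexamethasone. The MDI group received the cocktail with the albumin vehicle. In the OA group the vehicle was replaced by albumin carrying 100 µM oleic acid. The OA_T0 group had the same oleic acid plus 5 µM T0901317, which activates liver X receptors (LXR). Each group had 3 libraries. Among the samples analysed here no group received T0901317 without oleic acid, and none lacked the cocktail. Nothing in the labels says that the libraries of a group came from separate cultures, so p-values measure the spread between these libraries, which may be technical.

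In the canonical branch of the pathway, a Wnt protein binds a Frizzled receptor together with LRP5 or LRP6. This stops the Axin complex from marking beta-catenin for destruction, and beta-catenin then enters the nucleus and acts with TCF/LEF factors on target genes. SFRP proteins bind the ligands, and some DKK proteins, such as DKK1, block the LRP co-receptors. In preadipocytes canonical signalling is known to hold back adipogenesis, with Wnt10b as the textbook ligand, while Wnt5a acts largely through branches that do not use beta-catenin.

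Deposited values were normalised counts per gene, which were not whole numbers. The worth of 1 fragment was read from the low values of each library, which gave estimated depths of 18000000 to 59900000 fragments. Detection was judged against a floor of 3 fragments, worth 1.35 to 4.62 units depending on the library, which covers counting error only. OA replicate 1 and OA_T0 replicate 3 stood apart in a ribosomal RNA gene, at 0.649% and 3.06% of all values against 4.40% to 5.96% in the others. The 9 fibroblast and preadipocyte markers all averaged at least 10, and their summed level ran from 229952 to 262882 in MDI, 252107 to 281158 in OA and 231191 to 274496 in OA_T0. Of 7 adipocyte markers found, 4 averaged at least 10, and their summed level ran from 6871 to 7533 in MDI, 12319 to 13304 in OA and 10577 to 11397 in OA_T0. Lpl made up most of this sum, at 5234 to 5628 in MDI, 9155 to 9512.5 in OA and 8439 to 8949 in OA_T0. Fabp4 ran from 289 to 452, 1825 to 2383 and 596 to 740 in the same order. Pparg was highest in OA_T0, at 1143 to 1217 against 927 to 1014 in OA and 930 to 954 in MDI. Cebpa overlapped between all groups. Adipoq, Plin1 and Cfd, which mark mature adipocytes, reached at most 6.76, 6.71 and 1.34 in any library. Endothelial markers summed to at most 20.0 and leukocyte markers to at most 48.7, with Adgre1 at 0 in every library.

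Expression split the members into separate ranges. Of the 38, 18 averaged at least 10 deposited units over the 9 libraries and were tested, and 20 lay below. The lowest mean of a tested member was 151, for Lef1, and the highest of an untested one was 9.18, for Wnt2b, so the limit fell in a wide gap. All 18 tested members were above the floor in all 9 libraries. Of the 20 low members, 7 were never above it in any library and 13 were above it at least once.

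**Figure D1:**
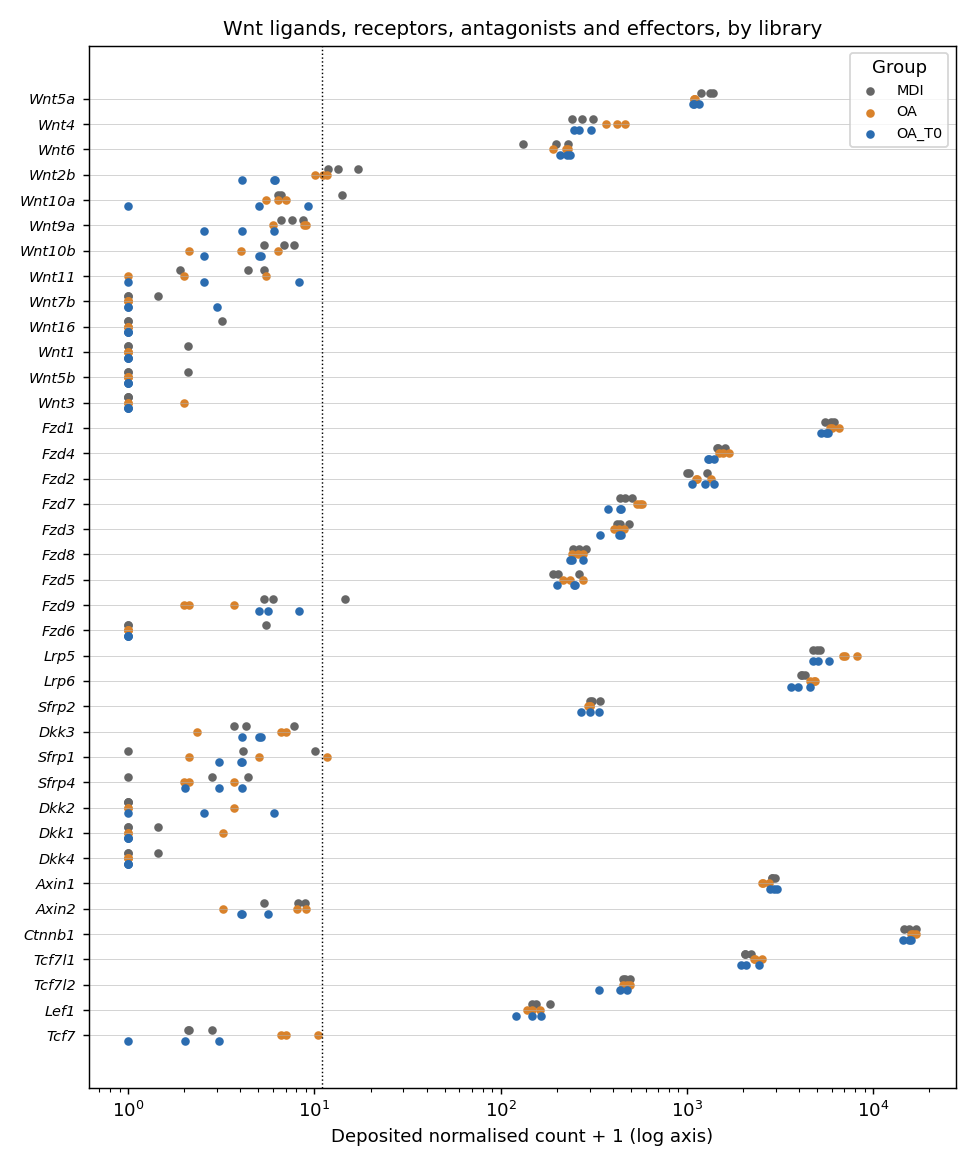
Deposited normalised count plus 1 (log axis) of each of the 38 members, 1 point per library, coloured by group (MDI, OA, OA_T0). The dotted line marks a value of 10 before 1 is added, and the 18 tested members lie between Lef1, at a mean of 151, and Ctnnb1, at a mean of 15822.

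Few members differed between OA and MDI, and 2 of those 3 differed in the opposite direction between OA_T0 and OA. In OA against MDI, 2 of the 18 tested members rose, the ligand Wnt4 and the co-receptor Lrp5, and 1 fell, the ligand Wnt5a. Over all 15002 tested genes limma called 3.43% higher and 3.36% lower in that comparison, at an adjusted p below 0.05. With T0901317 added, in OA_T0 against OA, 0 rose and 5 fell, namely Wnt4, Lrp5, Lrp6, Fzd7 and Fzd4, where limma called 8.27% of all tested genes higher and 6.84% lower. By unadjusted p under 0.05, the counts were 5 higher and 2 lower in the first of these comparisons and 1 higher and 6 lower in the second. In OA_T0 against MDI limma called 0 members in either direction, with 0 higher and 2 lower at an unadjusted p under 0.05 and a smallest adjusted p of 0.107. Among all tested genes that comparison called 1.25% higher and 1.36% lower, 2.61% in all.

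The median log2 fold change of the 18 was 0.07 in OA against MDI, -0.10 in OA_T0 against OA and -0.06 in OA_T0 against MDI. The medians of all tested genes were 0.01, -0.0023 and 0.02 in the same order. The 3 OA libraries all lay above the 3 of MDI for 5 members and all below for 2, against 13.4% and 12.6% of all tested genes (26.1% in all). The OA_T0 libraries all lay above those of OA for 1 member and all below for 6, against 17.1% and 15% of all tested genes (32.1% in all). Between OA_T0 and MDI the groups were apart for 0 members above and 2 below, Wnt5a and Fzd4, against 13.3% and 10.2% of all tested genes (23.5% in all). The OA libraries enter both comparisons with opposite signs, so a chance rise in OA appears in both.

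**Figure D2:**
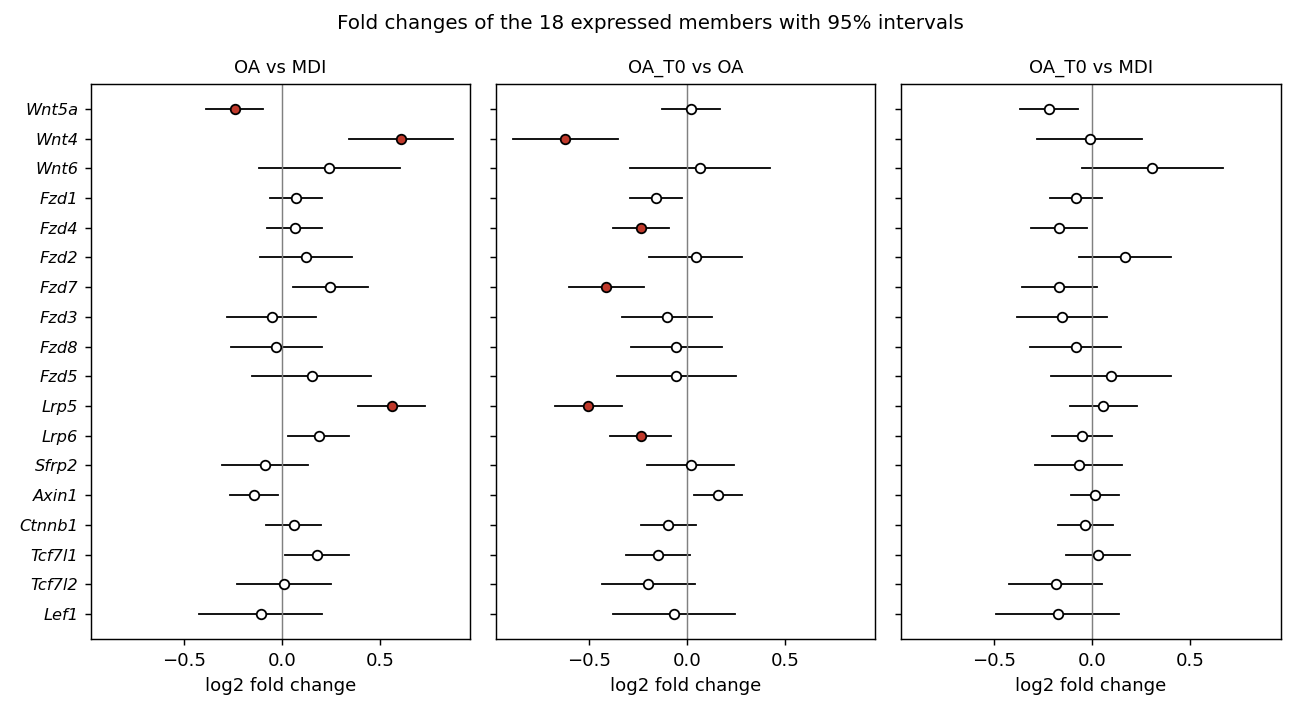
Log2 fold change (x axis) of the 18 tested members in the 3 comparisons, with the 95% interval from limma as a line and red points for members with an adjusted p below 0.05. Wnt4 and Lrp5 lie right of 0 in OA against MDI, left of it in OA_T0 against OA and near it in OA_T0 against MDI.

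Among the ligands, 13 were in the table and 3 were tested: Wnt5a, Wnt4 and Wnt6. Wnt4, which signals through canonical and other branches according to context, read 271, 239 and 312 in MDI, 418, 368 and 466 in OA, and 263, 306 and 245 in OA_T0. Every OA library lay above all MDI and all OA_T0 libraries, while MDI and OA_T0 overlapped. The mean rose 1.52-fold, from 274 ± 36.5 in MDI to 417 ± 49.0 in OA (SD, n = 3), a log2 fold change of 0.61 with SE 0.12 and limma adjusted p = 0.00871. In OA_T0 it averaged 271 ± 31.2, lower than in OA with a log2 fold change of -0.62, SE 0.12 and limma adjusted p = 0.00381. Between OA_T0 and MDI the log2 difference was -0.01, with a 95% interval from -0.28 to 0.25. The rise lost its call without MDI replicate 2, the library with the lowest MDI value, at limma adjusted p = 0.0674.

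Wnt5a was the most abundant ligand per kilobase of exon. It read 1182, 1374 and 1329 in MDI, 1105, 1093.5 and 1084 in OA, and 1096, 1160.2 and 1072 in OA_T0. All 6 libraries with oleic acid lay below the 3 of MDI. The mean fell from 1295 ± 101 in MDI to 1094 ± 10.6 in OA, with a log2 fold change of -0.24, SE 0.07 and limma adjusted p = 0.0481. OA_T0 averaged 1109 ± 45.5, a log2 difference from MDI of -0.22 that did not pass (limma adjusted p = 0.107). The call in OA stood close to the limit: it was lost without MDI replicate 2 or 3, any 1 of the OA libraries or OA_T0 replicate 1, at limma adjusted p from 0.0748 to 0.227. Wnt6 read 131, 197 and 228 in MDI, 224, 189 and 229 in OA, and 235, 227 and 208 in OA_T0, with overlap between all groups and no call. Per kilobase of exon Wnt5a averaged 149 ± 14.3 over the 9 libraries, while Wnt6 at 94.6 ± 14.98 and Wnt4 at 76.5 ± 19.1 did not differ beyond their spread.

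The other 10 ligands stayed low. Wnt10b, the textbook brake on adipogenesis, read 5.85, 4.35 and 6.76 in MDI, 1.12, 5.37 and 3.01 in OA, and 4.14, 4.02 and 1.54 in OA_T0. These values came from about 23, 8 and 9 fragments in the 3 groups, and every OA_T0 library lay below the 3 of MDI while OA overlapped both. When every gene with any value was tested, Wnt10b had a limma adjusted p of 0.583 in OA against MDI, 0.637 in OA_T0 against MDI and 0.990 in OA_T0 against OA. Wnt10a and Wnt9a reached at most 13.1 and 8.05 in any library, and Wnt11 at most 7.24. Wnt1, Wnt3, Wnt5b, Wnt7b and Wnt16 never exceeded the floor. Wnt2b, singled out after its values were seen, read 16.2, 10.9 and 12.4 in MDI, 10.1, 10.7 and 9.03 in OA, and 5.17, 5.03 and 3.08 in OA_T0. The 3 groups did not overlap at all, but the OA_T0 values rest on about 12 fragments and lie near the floor. In the same test Wnt2b had a limma adjusted p of 0.734 in OA against MDI. It was 0.176 in OA_T0 against MDI and 0.157 in OA_T0 against OA.

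Both LRP co-receptors were expressed, at 599 ± 126 per kilobase of exon for Lrp5 and 316 ± 30.3 for Lrp6 over the 9 libraries. Lrp5, which forms the signalling complex with Frizzled, read 5009, 4721 and 5191 in MDI, 7043, 6847 and 8159.8 in OA, and 5035, 5798 and 4722 in OA_T0. The OA libraries lay above all others, and those of MDI and OA_T0 overlapped. The mean rose 1.48-fold, from 4973.5 ± 237 to 7349.8 ± 708 (SD, n = 3), a log2 fold change of 0.56 with SE 0.08 and limma adjusted p = 5.86e-04. In OA_T0 it averaged 5185 ± 553, lower than OA with a log2 fold change of -0.50, SE 0.08 and limma adjusted p = 6.52e-04. From MDI to OA_T0 the log2 difference was 0.06, with a 95% interval from -0.11 to 0.23. Lrp5 kept both calls in all 19 other settings tried, among them each of the 9 fits with 1 library left out.

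Lrp6, the close relative of Lrp5 with the same role, read 4090.1, 4279 and 4135 in MDI, 4566, 4853 and 4812 in OA, and 3921, 4573 and 3630.0 in OA_T0. The OA libraries lay above those of MDI, whereas OA_T0 replicate 2 lay within the OA range. The mean was 4168 ± 98.6 in MDI and 4743.5 ± 155 in OA, a log2 difference of 0.19 that did not pass (limma adjusted p = 0.144). It fell to 4042 ± 483 in OA_T0, with a log2 fold change of -0.24, SE 0.07 and limma adjusted p = 0.0377. That call was lost in 6 of the 9 fits with 1 library left out, namely without MDI replicate 2, any 1 of the OA libraries, OA_T0 replicate 1 or OA_T0 replicate 3, at limma adjusted p from 0.0558 to 0.150.

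Of 9 Frizzled genes, which encode the receptors that bind Wnt proteins, 7 were tested, and 2 passed in OA_T0 against OA. Fzd7 read 435, 504 and 466 in MDI, 538, 555 and 570.0 in OA, and 439.7, 436 and 376 in OA_T0. All OA libraries lay above all others. Its mean was 468 ± 34.5 in MDI and 554 ± 16.0 in OA, a log2 difference of 0.25 that did not pass (limma adjusted p = 0.122). It fell to 417 ± 35.9 in OA_T0, with a log2 fold change of -0.41, SE 0.09 and limma adjusted p = 0.00620. It passed in all 9 fits with 1 library left out. Without OA replicate 1 and OA_T0 replicate 3 together it had limma adjusted p = 0.0634.

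Fzd4, also a receptor for the non-Wnt ligand norrin, read 1601, 1456 and 1462 in MDI, 1488, 1677 and 1561 in OA, and 1316, 1404 and 1294 in OA_T0. MDI and OA overlapped, and every OA_T0 library lay below both. From OA to OA_T0 the mean fell from 1575 ± 95.5 to 1338 ± 57.8, with a log2 fold change of -0.23, SE 0.07 and limma adjusted p = 0.0283. This call was lost when OA replicate 2, or the first or the third OA_T0 library, was left out, at limma adjusted p from 0.0843 to 0.125.

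**Figure D3:**
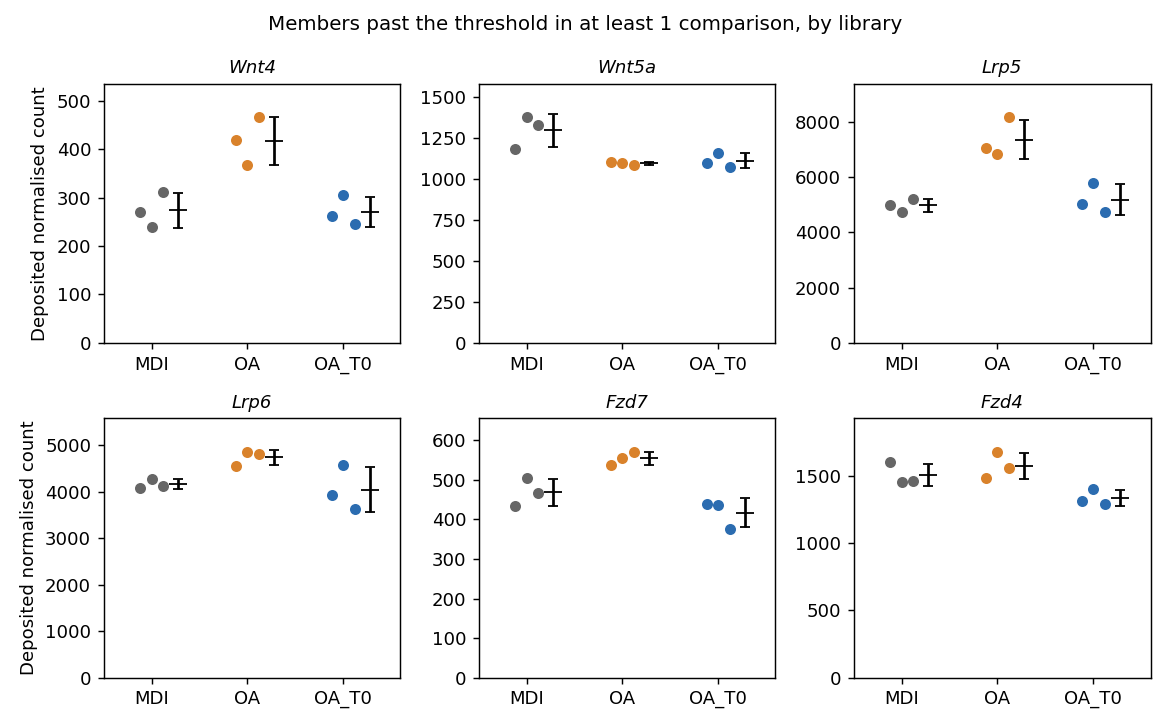
Deposited normalised counts (y axis, from 0) of the 6 members that passed in at least 1 comparison, 1 point per library and the mean with SD beside them, n = 3 per group. For Wnt4, Lrp5 and Fzd7 the 3 OA points lie above all MDI and OA_T0 points, and for Wnt5a the 3 MDI points lie above all others.

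Fzd1 was the most abundant Frizzled per kilobase of exon and read 6121, 5483 and 5915 in MDI, 6013, 5890.1 and 6518 in OA, and 5563, 5747 and 5211 in OA_T0. Every OA_T0 library lay below the 3 of OA, with limma adjusted p = 0.104. Per kilobase Fzd1 averaged 1389 ± 91.7 over the 9 libraries, Fzd2 322 ± 39.5, Fzd4 219 ± 18.8 and Fzd7 106 ± 14.4, and each stood beyond the spread of the next. Fzd8 followed at 43.1 ± 3.11, while Fzd3 at 33.4 ± 3.15 and Fzd5 at 33.3 ± 4.33 did not differ beyond their spread. Fzd2, Fzd3, Fzd5 and Fzd8 had log2 fold changes between -0.16 and 0.17 in all 3 comparisons and none passed. Fzd6 was above 0 in 1 library, at 4.51 in MDI replicate 3. Fzd9 read 4.95, 4.35 and 13.5 in MDI, 1.12, 2.68 and 1.00 in OA, and 7.24, 4.02 and 4.62 in OA_T0, with only about 4 fragments in all of OA.

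In many of these genes OA_T0 replicate 3 was the low library of its group. It held the lowest of the 3 OA_T0 values in 16 of the 18 tested members, against 43.9% of all tested genes. Without it, 3 of the 5 members that fell in OA_T0 against OA still passed, and these were Wnt4, Lrp5 and Fzd7. With OA replicate 1 left out as well, 2 passed, Wnt4 and Lrp5.

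The upstream sequences of the members that moved are shown for those present in the RefSeq promoter table of build GRCm38.p6, which are Wnt4, Fzd7 and Fzd4. The counts were made on the older build mm9, so these positions are not tied to the counts. Each is given 5′ to 3′ on the plus strand, up to the first annotated exon, and capitals mark GGGCGG on either strand, the GC box that Sp-family factors bind.
Wnt4: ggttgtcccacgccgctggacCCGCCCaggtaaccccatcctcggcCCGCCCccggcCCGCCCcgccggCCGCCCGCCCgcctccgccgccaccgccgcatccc
Fzd7: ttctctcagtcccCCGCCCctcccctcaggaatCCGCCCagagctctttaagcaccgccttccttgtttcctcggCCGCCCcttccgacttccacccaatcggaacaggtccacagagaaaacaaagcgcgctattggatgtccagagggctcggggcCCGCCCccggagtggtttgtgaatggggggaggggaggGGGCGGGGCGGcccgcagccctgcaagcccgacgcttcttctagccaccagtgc
Fzd4: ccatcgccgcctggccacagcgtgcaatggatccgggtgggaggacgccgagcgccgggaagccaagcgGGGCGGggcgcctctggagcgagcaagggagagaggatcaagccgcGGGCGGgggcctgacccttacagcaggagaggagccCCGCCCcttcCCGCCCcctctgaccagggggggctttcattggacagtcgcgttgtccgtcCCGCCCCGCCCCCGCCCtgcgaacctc
The Wnt4 stretch lies at chr4:137277385-137277488 and holds 5 GC boxes, 1 pair of them overlapping, with 83.7% G and C. The Fzd7 stretch lies at chr1:59481897-59482146 and holds 6, 1 pair of them overlapping, with 65.2% G and C. The Fzd4 stretch lies at chr7:89404116-89404354 and holds 7, 1 pair of them overlapping, with 72.8% G and C.

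Over the full windows, from 250 bases before to 50 after each start, 35.7% of the 32851 windows in the table hold this box on either strand. Of the 33 windows of all members in the table, tested or not, 25 hold it, so it is not particular to the tested ones. Of the 16 windows of the 11 tested members in the table, 12 hold it. Of these 16, 13 hold more G and C than the median of all windows, 52.7%. The share with the box was not compared with that of windows equally rich in G and C. The TCF/LEF core CTTTGA stands in 16.0% of all windows and in 2 of the 16, those of Fzd1 and Lef1. The nuclear receptor half-site AGGTCA stands in 16.3% of all windows and in 0 of the 16. Direct repeats of this half-site spaced by 1 and by 4 bases, the forms that PPAR and LXR bind together with RXR, stand in 0.0396% and 0.0152% of all windows and in 0 of the 16. A match describes these letters in this window only.

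Among the 7 secreted antagonists 1 was expressed. Sfrp2, which binds Wnt proteins outside the cell, read 309, 341 and 299 in MDI, 299, 292 and 300.1 in OA, and 302, 336 and 268 in OA_T0. The groups overlapped throughout, and the log2 fold change was -0.09 in OA against MDI (95% interval -0.31 to 0.13) and 0.02 in OA_T0 against OA. Sfrp1 reached 10.7 in OA replicate 2 and was at 0 in MDI replicate 2, and Sfrp4 stayed at or below 3.38. Dkk3 ranged from 1.34 to 6.76, Dkk2 reached at most 5.03, and Dkk1 and Dkk4 never exceeded the floor.

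Inside the cell, Axin1 was expressed and Axin2 was low. Axin1, the scaffold of the complex that marks beta-catenin for destruction, read 2851, 2848 and 2949 in MDI, 2541, 2555 and 2753 in OA, and 2929, 2775 and 3045 in OA_T0. The OA libraries lay below all others, with log2 differences of -0.14 from MDI to OA (limma adjusted p = 0.167) and 0.16 from OA to OA_T0 (limma adjusted p = 0.0800). The second difference passed without OA replicate 3 (limma adjusted p = 0.0382) or OA_T0 replicate 2 (limma adjusted p = 0.0459). Axin2, whose transcription is a textbook readout of canonical signalling, read 7.20, 4.35 and 7.89 in MDI, 2.24, 8.05 and 7.02 in OA, and 3.10, 3.02 and 4.62 in OA_T0. It was above the floor in 5 of the 9 libraries, among them all of MDI, on about 27, 15 and 9 fragments in the 3 groups. When every gene with any value was tested, Axin2 had a limma adjusted p of 0.881 in OA against MDI. It was 0.666 in OA_T0 against OA and 0.631 in OA_T0 against MDI.

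Ctnnb1, which encodes beta-catenin, was the most abundant member per kilobase of exon, at 3047 ± 167 over the 9 libraries. It read 14614, 15627 and 16982 in MDI, 16014, 16251 and 16886 in OA, and 15593, 15922 and 14507 in OA_T0. Its groups differed by at most 0.10 on the log2 scale in any comparison, and none passed. These values are transcript levels and do not show how much beta-catenin protein was present.

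Of the TCF/LEF factors, which carry beta-catenin to DNA, Tcf7l1 was the most abundant per kilobase of exon and read 2039, 2053 and 2193 in MDI, 2284, 2312 and 2526 in OA, and 2071, 2427 and 1948 in OA_T0. Every OA library lay above the 3 of MDI, but the log2 difference of 0.18 did not pass (limma adjusted p = 0.187). Its fall from OA to OA_T0, at limma adjusted p = 0.209, passed without OA_T0 replicate 2 (limma adjusted p = 0.0268). Tcf7l2 ranged from 337 to 495 and Lef1 from 119 to 182 over the 9 libraries, and neither passed. Tcf7, singled out after its values were seen, read 1.8, 1.09 and 1.13 in MDI, 5.59, 9.39 and 6.02 in OA, and 2.07, 1.01 and 0 in OA_T0. The OA libraries lay above all others, on about 6, 18 and 3 fragments in the 3 groups. When every gene with any value was tested, Tcf7 had a limma adjusted p of 0.117 in OA against MDI and 0.0356 in OA_T0 against OA.

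Other genes of the pathway were taken from 5 lists of 108 symbols, of which 101 were found, 1 of them by an alias, and 84 tested. In OA against MDI 6 of these rose and 4 fell, or 11.9% in all, beside 6.79% of all tested genes. Their counts by unadjusted p under 0.05 were 10 and 10. From OA to OA_T0 6 rose and 7 fell, or 15.5% beside 15.1% of all tested genes. In OA_T0 against MDI limma called 0, with 7 higher and 7 lower at an unadjusted p under 0.05. Their median log2 fold changes were 5.80e-04, 0.01 and 0.0012 in the 3 comparisons.

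**Figure D4:**
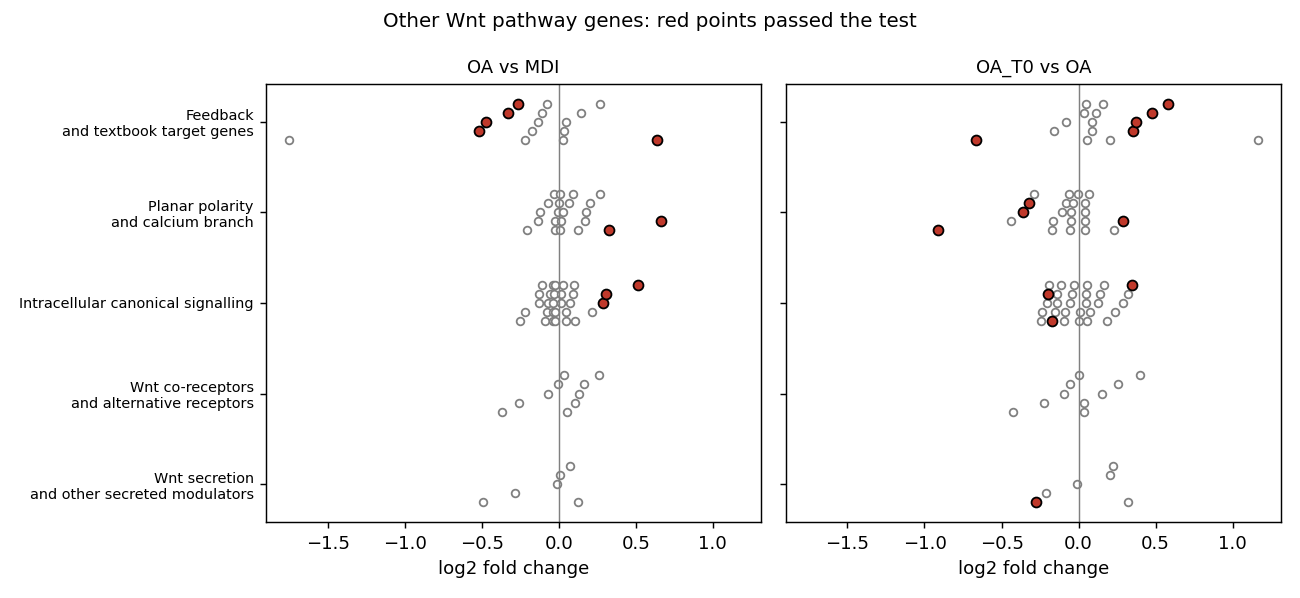
Log2 fold changes (x axis) of the 84 tested genes of 5 other Wnt pathway lists in OA against MDI and in OA_T0 against OA, 1 point per gene and red where the limma adjusted p was below 0.05. The list of feedback and target genes holds 5 of 16 red points in each comparison, 4 left of 0 in the first and 4 right of 0 in the second, of which 3 (Jag1, Ccn4 and Myc) are the same genes.

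Textbook target and feedback genes of the pathway held all 4 of the falls in OA. This list was chosen with earlier results of these data known. Of its 20 symbols 17 were found, without Nkd1, Sp5 and Mmp7, and the feedback gene Nkd2, at most 1.54, was not tested. Of 16 tested, 1 rose and 4 fell in OA against MDI, 31.2% beside 6.79% of all tested genes, with a median log2 fold change of -0.12. With T0901317 added 4 rose and 1 fell, 31.2% beside 15.1% of all tested genes, with a median of 0.10. Jag1, a Notch ligand, read 1965, 2122 and 2075 in MDI, 1410.4, 1535 and 1366 in OA, and 2331, 2226 and 1895 in OA_T0. It fell in OA with a log2 fold change of -0.52 (limma adjusted p = 7.97e-04) and rose in OA_T0 by 0.58 (limma adjusted p = 1.32e-04). Ccn4, a secreted matricellular protein, fell with a log2 fold change of -0.47 in OA (limma adjusted p = 0.00113) and rose by 0.35 in OA_T0 (limma adjusted p = 0.00450). Myc, a growth regulator, fell by 0.33 on the log2 scale in OA (limma adjusted p = 0.00468) and rose by 0.48 in OA_T0 (limma adjusted p = 1.03e-04).

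The other target that fell in OA was Nr2f2, a nuclear receptor, with a log2 fold change of -0.26 (limma adjusted p = 0.0253). Leaving out MDI replicate 1 or 2, or OA replicate 1 or 3, ended this call, at limma adjusted p from 0.0586 to 0.144. Ccnd1, cyclin D1, rose in OA_T0 against OA by a log2 fold change of 0.37 (limma adjusted p = 0.00222). The opposite pattern was shown by Ccn5, a relative of Ccn4 known to be secreted by preadipocytes. It read 1294, 1104 and 1326 in MDI, 1889, 1756 and 2157 in OA, and 1344, 1225 and 1086 in OA_T0, with the OA libraries above all others. It rose in OA by a log2 fold change of 0.64 (limma adjusted p = 7.71e-04) and fell in OA_T0 by 0.67 (limma adjusted p = 2.39e-04). Many of these targets also answer to other signals, and no value here separates those inputs.

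In the planar polarity and calcium branch, 2 of 22 tested genes rose in OA and 0 fell, 9.09% beside 6.79% of all tested genes. From OA to OA_T0 1 rose and 3 fell, 18.2% beside 15.1% of all tested genes, so both shares lay near those of all genes. Prickle1, a cytoplasmic protein of planar cell polarity, read 777, 742 and 799 in MDI, 1216, 1222 and 1233 in OA, and 627, 681 and 641 in OA_T0. The 3 groups did not overlap, and the OA libraries lay within a narrow band. It rose in OA by a log2 fold change of 0.66 (limma adjusted p = 1.88e-05) and fell in OA_T0 by 0.91 (limma adjusted p = 3.55e-07). Nfatc4, a calcium-dependent transcription factor, rose in OA by a log2 fold change of 0.33 (limma adjusted p = 0.0372) and fell in OA_T0 by 0.32 (limma adjusted p = 0.0242). Its rise was lost without MDI replicate 1 or 2 or any 1 OA library (limma adjusted p from 0.0755 to 0.192). Its fall was lost without any 1 OA library, OA_T0 replicate 1 or OA_T0 replicate 3 (limma adjusted p from 0.0525 to 0.132). From OA to OA_T0, Plcb1, a phospholipase C, fell with a log2 fold change of -0.36 (limma adjusted p = 0.0275) and its relative Plcb4, whose groups overlapped, rose by 0.29 (limma adjusted p = 0.0381). Plcb1 lost its call when OA replicate 1 or 2 or OA_T0 replicate 1 was left out, at limma adjusted p from 0.101 to 0.130. Plcb4 lost its call when MDI replicate 2, OA replicate 1 or 3, or OA_T0 replicate 1 or 2 was left out, at limma adjusted p from 0.0577 to 0.129.

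**Figure D5:**
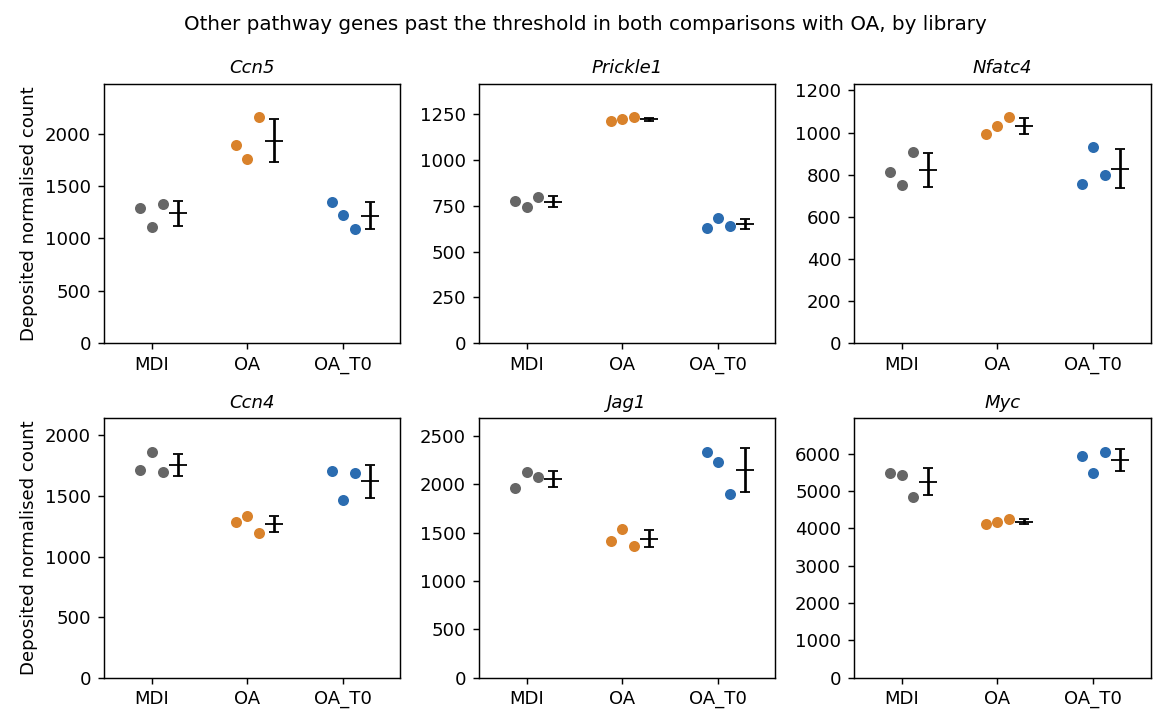
Deposited normalised counts (y axis, from 0) of the 6 other pathway genes that passed both in OA against MDI and in OA_T0 against OA, 1 point per library with the mean and SD beside them, n = 3 per group. Ccn5, Prickle1 and Nfatc4 are highest in OA, whereas Ccn4, Jag1 and Myc are lowest there.

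Of 30 tested genes of intracellular canonical signalling, 3 rose and 0 fell in OA, 10% beside 6.79% of all tested genes. Among these were Tle2 and Tle5, of the Groucho family (log2 fold changes 0.52 and 0.31, limma adjusted p = 0.0170 and 0.0464). The other was Pygo1, a beta-catenin cofactor (log2 fold change 0.29, limma adjusted p = 0.0383). Leaving out MDI replicate 1 or 2 ended all 3 calls. Tle2 was also lost without OA replicate 2, Tle5 without OA replicate 1 or 3 or OA_T0 replicate 1, and Pygo1 without any 1 OA library or OA_T0 replicate 1. Over all these fits the limma adjusted p reached 0.0794 for Tle2, 0.203 for Tle5, whose groups overlapped, and 0.168 for Pygo1. With T0901317 added 1 rose and 2 fell, 10% beside 15.1% of all tested genes. The kinase Csnk1e rose (0.35, limma adjusted p = 0.00226) and kept its call in all 19 other settings. The tankyrases Tnks2 and Tnks, which promote turnover of Axin, had log2 fold changes of -0.20 (limma adjusted p = 0.0352) and -0.17 (limma adjusted p = 0.0400). Both lost their calls without MDI replicate 2, OA replicate 1 or 2, or OA_T0 replicate 1 or 3, and Tnks also without OA_T0 replicate 2. In these fits the limma adjusted p reached 0.157 for Tnks2 and 0.147 for Tnks. Among 10 tested co-receptors and alternative receptors, such as Ryk and Ror1, limma called 0 in all 3 comparisons. At an unadjusted p under 0.05 there were 1 higher and 1 lower in OA against MDI, 1 lower in OA_T0 against OA and 1 higher in OA_T0 against MDI. Of 6 tested genes of Wnt secretion and secreted modulation, 1 was called, Trabd2b, whose product cuts Wnt proteins. Trabd2b was entered as an alias of the listed Tiki1, but is a relative of that gene. It fell by 0.27 on the log2 scale in OA_T0 against OA (limma adjusted p = 0.0176). Its call was lost without OA replicate 2 or OA_T0 replicate 1, at limma adjusted p from 0.0609 to 0.0649.

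Of the 4 counts of other pathway genes in OA against MDI and in OA_T0 against OA, 2 moved by over 1.5 times with single libraries. Those higher in OA than in MDI, 6 in all, were 2 when the first or the second MDI library was left out and 3 when any 1 OA library was. Of those lower in OA_T0 than in OA, 7 in all, leaving out OA replicate 2 gave 2 and leaving out OA replicate 1 gave 3. Leaving out OA_T0 replicate 1, 2 or 3 gave 2, 11 and 4 in that order. In bulk RNA of a whole culture, fewer cells with a transcript and less of it per cell cannot be told apart. The summed adipocyte markers, mostly Lpl, were highest in OA, where Wnt4, Lrp5, Ccn5 and Prickle1 were highest too. Unlike these genes, the sum in OA_T0 stayed above every MDI library, at 10577 to 11397 against 6871 to 7533. The adipocyte marker Pparg was highest in OA_T0 instead. Of the fibroblast and preadipocyte markers, Pdgfra was highest in OA too, at 18137 to 18906 against 12387 to 14657 in MDI and 10780 to 13738 in OA_T0. Thy1 ran from 8767 to 9444 in OA, 7933 to 8323 in MDI and 7959 to 8365 in OA_T0. For every other marker of that list, OA overlapped with MDI or OA_T0. The part of adipocyte or preadipocyte markers in the differences of Wnt4, Lrp5, Ccn5 and Prickle1 was not tested.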

How the data were processed

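The authors deposited 1 table of normalised counts per gene symbol, a signal that is not in whole numbers, with 1 column per library. The submitters' processing notes name CASAVA 1.8.2, TopHat, HTSeq, DESeq2 and the genome build mm9, without roles, order or settings. Whether strand was used in counting is not given in the sources used here, so reads of overlapping or antisense genes, or of near-identical copies, cannot be separated. Per the labels' protocols, mRNA was captured with oligo-dT beads and libraries kept strand information. Low values piled up on multiples of 1 step per library, but between 5 and 50 steps only 62.3% to 68.4% of them came within 0.05 of a whole multiple. For that reason no count test was run, and fragment numbers are estimates.

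Tests used log2(value + 1), which understates changes of low genes, for the 15002 genes averaging at least 10 over the 9 libraries. They were run two-sided with limma 3.58.1 (R 4.3.3), with a trend of variance on mean level and the spread pooled over the 3 groups. P-values were adjusted over all tested genes by the Benjamini-Hochberg method within each comparison, with a limit of 0.05. A permutation test of 3 libraries against 3 cannot go below p = 0.1 and was not used. The procedure was tested on simulated data. Exon lengths came from GENCODE M21, which held all 38 symbols, and were used to compare levels between genes per kilobase of exon.

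Members, lists and naming rules were chosen with earlier results of these data known. Named were all members, with per-library values for called members and the 2 most abundant per role, and up to 3 called genes per list, direction and comparison. Alternatives were other pseudocounts, filters, scalings, variance estimates, a replicate block, a fit of only the compared groups and fits without single libraries.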

Additional observations from a re-analysis of the deposited data

How the results depend on the processing

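No value of a named gene that passed changed direction in any setting tried. For the 18 tested members, 26 calls were lost and 4 gained over 1026 combinations of gene, comparison and setting. With no filter on low values the untested member Tcf7 also passed in OA_T0 against OA. The 1 member lower in OA than in MDI, Wnt5a, numbered 0 with no filter on low values, with only the 2 groups compared, with the replicate block and without OA replicate 1 and OA_T0 replicate 3. The 5 members lower in OA_T0 than in OA numbered 2 without those 2 libraries, and quantile normalisation gave 1 member lower in OA_T0 than in MDI. With 1 library left out in turn, members higher in OA than in MDI numbered 1 to 2 and those lower 0 to 1. In OA_T0 against OA these fits gave 0 to 1 higher and 3 to 6 lower, and in OA_T0 against MDI 0 to 0 in both directions. Other pathway genes higher in OA than in MDI numbered 2 with no filter and 3 with the replicate block, and those lower 7 with quantile normalisation. Those lower in OA_T0 than in OA numbered 3 with no filter and 2 without OA replicate 1 and OA_T0 replicate 3. Against MDI, OA_T0 had 1 higher without those 2 libraries, and 1 lower with quantile normalisation or equal totals. With 1 library left out, other pathway genes in OA against MDI numbered 2 to 8 higher and 3 to 4 lower, in OA_T0 against OA 5 to 7 higher and 2 to 11 lower, and in OA_T0 against MDI 0 to 0 higher and 0 to 2 lower. Same-numbered libraries of different groups deviated with correlations from -0.256 to 0.259, over 0.1 in 1 of 9 pairs. Pairs with different numbers ran from -0.230 to 0.250. Of 18 checks for the best partner, 3 gave the same number. In both other groups, 0 libraries correlated best with their own number. With 3 libraries per group, these values cannot tell whether same-numbered libraries were handled together. The replicate block took members lower in OA than in MDI from 1 to 0 and other pathway genes higher from 6 to 3, and changed no other call of a member. The cause of these shifts was not tested, beyond the smaller number of libraries or larger number of genes that some settings have by construction. With the longest transcript as length, levels per kilobase of Tcf7l2 and Lef1 rose from 51.7 to 122 and from 17.1 to 41.2, and the order within each role did not change. Depth limits the 20 low members, for which 3 fragments per library set the floor.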
